A study of Mus musculus with 12 samples.

Results

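The unfolded protein response and endoplasmic reticulum (ER) chaperone genes were followed as a set of 35 genes, chosen by symbol from 23238 measured genes without use of their values. All 35 genes were listed, and 34 of them were among the 13054 genes with enough counts to be tested. The remaining gene, Chac1, fell below the count filter. Expression was measured by 3′ RNA sequencing in cells isolated from mouse lung as alveolar type II (ATII) cells, the epithelial cells that make pulmonary surfactant. There were 4 groups of 3 libraries each. Con was the negative control for the p300 knockout and received PBS into the trachea. BLM was the same control genotype and received 4 mg/kg bleomycin, a drug that injures the lung and is used to induce fibrosis. KO carried the p300 knockout in ATII cells and received PBS. KOBLM carried the knockout and received 4 mg/kg bleomycin. p300 (Ep300) is a histone acetyltransferase and transcriptional coactivator. The floxed allele has LoxP sites around exon 9, and its deletion was driven by a tamoxifen-inducible Cre recombinase under the surfactant protein C promoter (Spc). The labels give 10 mg/kg tamoxifen at 8 weeks of age for all samples, while for another measurement of such cells the study compared tamoxifen with vehicle. Whether the control mice of these libraries received tamoxifen is therefore not certain, and if they did not, its effect and that of the deletion cannot be told apart. The study describes the control mice of these libraries as floxed mice without deletion in one place and as C57BL/6 mice in another. The study's methods give 3 tamoxifen injections within a week, before bleomycin. They give an age of 8 to 10 weeks for the mice of the sequenced cells. The time between bleomycin and cell isolation is not given in the sources used here. The cells were sorted as CD74+ EpCAM+.

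The ER folds secreted and membrane proteins with the help of chaperones, oxidoreductases and sugar-binding lectins. When unfolded proteins accumulate there, 3 sensors in the ER membrane (IRE1α, PERK and ATF6, encoded by Ern1, Eif2ak3 and Atf6) start the unfolded protein response. IRE1α splices the Xbp1 mRNA, ATF6 is cut to release a transcription factor, and both lead to transcription of chaperone and ER-associated degradation genes. PERK slows translation and raises the translation of ATF4, which in turn leads to Ddit3 (CHOP), Trib3 and amino acid synthesis genes. ATII cells secrete large amounts of surfactant proteins, and the response has been studied in them for mutations that make surfactant protein C misfold. RNA counts per gene show neither the splicing of Xbp1 nor the cleavage of ATF6.

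Many of the chaperone genes share a promoter element through which ATF6 and spliced XBP1 act, the ER stress response element (ERSE). It consists of CCAAT and CCACG with 9 bases between them. In the RefSeq windows of 300 bases (250 before and 50 after the start site, GRCm38.p6), 30 of the 35 genes had a window. Atf6, Manf, Hyou1, Derl1 and Sec61a1 were not among them. An exact ERSE on either strand was found in 9 of these 30 genes (30%), against 0.137% of all 27025 genes with a window. These 9 genes were Hspa5, Hsp90b1, Calr, Canx, Pdia6, Dnajc3, Creld2, Syvn1 and Derl3. The set was chosen from known genes of this response, many of which share the element, so the share is a description and not a test. The sequence before Hspa5 is shown in full because Hspa5 carried the clearest difference between the groups, and the elements of the other genes are shown for comparison with it. The capitals mark the element, all sequences read 5′ to 3′ on the strand of the gene, and CGTGG and ATTGG mark an element in the reverse direction.
Hspa5, chr2:34771840-34772089, plus strand: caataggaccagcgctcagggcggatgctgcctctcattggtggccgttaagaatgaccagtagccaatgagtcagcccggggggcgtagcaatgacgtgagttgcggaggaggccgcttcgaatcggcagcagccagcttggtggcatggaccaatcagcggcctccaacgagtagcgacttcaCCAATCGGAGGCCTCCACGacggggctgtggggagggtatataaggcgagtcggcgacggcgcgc
Hsp90b1, distal element, chr10:86705633-86705661, minus strand: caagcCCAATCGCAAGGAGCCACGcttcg
Hsp90b1, proximal element, chr10:86705528-86705556, minus strand: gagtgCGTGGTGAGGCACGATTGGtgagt
Calr, chr8:84847070-84847098, minus strand: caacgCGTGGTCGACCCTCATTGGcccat
Canx, chr11:50325795-50325823, minus strand: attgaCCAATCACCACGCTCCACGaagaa
Pdia6, chr12:17266486-17266514, plus strand: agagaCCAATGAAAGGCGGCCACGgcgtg
Dnajc3, chr14:118937822-118937850, plus strand: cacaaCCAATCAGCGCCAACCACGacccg
Creld2, chr15:88819515-88819543, plus strand: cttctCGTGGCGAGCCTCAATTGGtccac
Syvn1, chr19:6046527-6046555, plus strand: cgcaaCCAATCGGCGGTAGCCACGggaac
Derl3, chr10:75893237-75893265, plus strand: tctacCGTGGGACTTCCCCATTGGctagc

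The 10 matches lay between 25 and 193 bases before the start site, counted from the end of the element. A second form, ERSE-II (ATTGG and CCACG with 1 base between them, either strand), was found in Dnajb11 and Herpud1, against 0.0444% of all genes. The 8-base XBP1 element TGACGTGG was in none of the 30 windows and in 0.714% of all genes. An ATF4 site of the form TGATGNAA on either strand was found in Herpud1, Trib3, Chac1 and Asns (13.3% of the 30 genes), against 4.51% of all genes. No match of one element overlapped a match of another. The start sites of the windows are those of RefSeq, and GENCODE M21 places the start of Hspa5 further upstream. These matches describe the letters of the window and do not show that a factor was bound.
Herpud1, ERSE-II, chr8:94386372-94386392, plus strand: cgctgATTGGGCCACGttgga
Dnajb11, ERSE-II, chr16:22857847-22857867, plus strand: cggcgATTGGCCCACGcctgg

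Library totals ran from 7005005 to 11153154 counts, and 6847 to 13838 genes had a count. The next lowest gene numbers after the lowest were those of KO 3 (8790), KOBLM 2 (9018) and Con 3 (10246). The lowest belonged to the third bleomycin library of the control genotype (BLM 3), which stood apart from the rest. The 8 pluripotency genes checked summed to 1620 CPM (counts scaled to library size) in BLM 3 and to 0.583 to 18.2 CPM in each of the others (6 of the 8 were detected there, and Zfp42 and Esrrb were at 0 in all libraries), while 15 macrophage genes summed to 827 CPM there and to 7998 CPM or more elsewhere. The main results that rest on BLM 3 are therefore given with and without it. The markers of the labelled cell type were low against those of macrophages: the 11 ATII genes summed to between 771 and 3686 CPM per library, and Sftpc, which defines the cells, ranged from 0.606 to 619 CPM. In libraries from sorted cells, fewer cells of a type and less RNA per cell cannot be told apart. Ep300 itself was at 109 ± 53.5 CPM in Con, 85.4 ± 45.4 in BLM, 143 ± 46.4 in KO and 112 ± 62.3 in KOBLM (SD, n = 3). Its 3′ counts lie outside exon 9 and do not check the deletion.

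**Figure D1:**
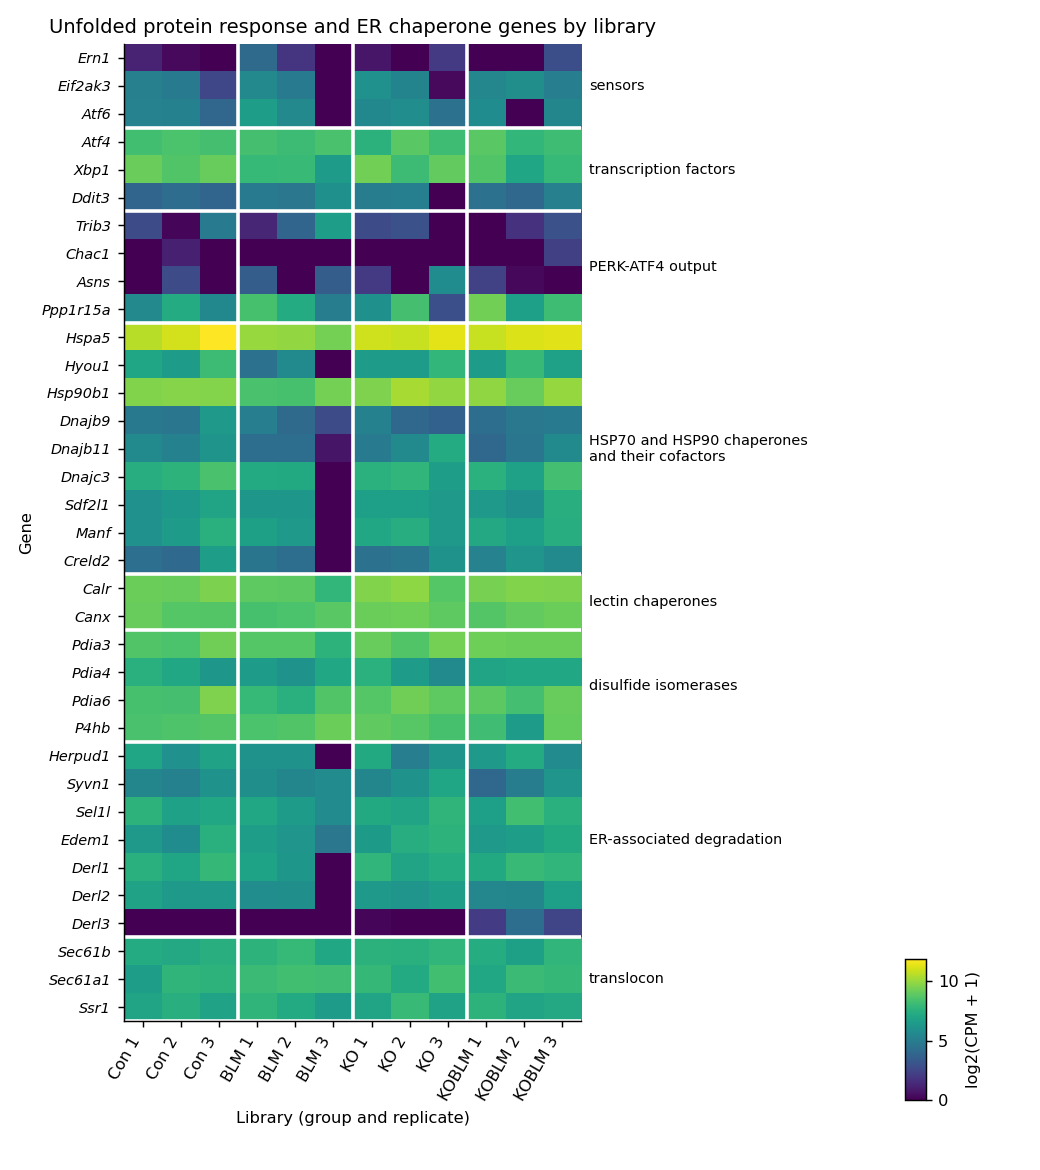
Level of each of the 35 genes (rows, by role) in each of the 12 libraries (columns), as log2(CPM + 1). Hspa5 was the highest gene of the set in all libraries, and in BLM 3 13 genes were at 0 counts.

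As a whole the set took a smaller share of the counts in the bleomycin-treated control mice than in the other 3 groups. It held 0.597%, 0.499% and 0.576% of all counts in the BLM libraries. It held 0.768%, 0.762% and 1.18% in Con, 0.841%, 0.766% and 1.02% in KO, and 0.816%, 0.811% and 0.905% in KOBLM. All 3 BLM libraries were below all 9 others. The same order held for the 34 genes other than Hspa5 (0.410% to 0.494% in BLM, 0.551% or more elsewhere). The totals include the ribosomal RNA entry Rn45s, which held 2.04% (Con 3) to 21.6% (KO 2) of the counts. It held 9.31%, 14.7% and 17.4% in BLM and 4.5%, 10.6% and 2.04% in Con. Its part in the difference of the shares was not tested. In TMM-scaled CPM the set summed to 4637 to 6087 in BLM and to 7313 or more elsewhere. With 3 libraries in a group these shares are given as a description.

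The set spanned a wide range of levels. Hspa5, which encodes BiP, the HSP70 chaperone of the ER, averaged 1952 CPM over the 12 libraries, and Hsp90b1, which encodes the ER HSP90 chaperone GRP94, averaged 768 CPM. They were followed by the lectin chaperone Calr (614 CPM), the disulfide isomerase Pdia3 (482 CPM), the lectin chaperone Canx (478 CPM) and the disulfide isomerase Pdia6 (426 CPM). At the lower end Asns averaged 7.18 CPM, Ern1 2.48 CPM, Derl3 2.23 CPM and Chac1 0.403 CPM. The 3′ method counts about 1 fragment per transcript, so these levels were not divided by gene length.

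**Figure D2:**
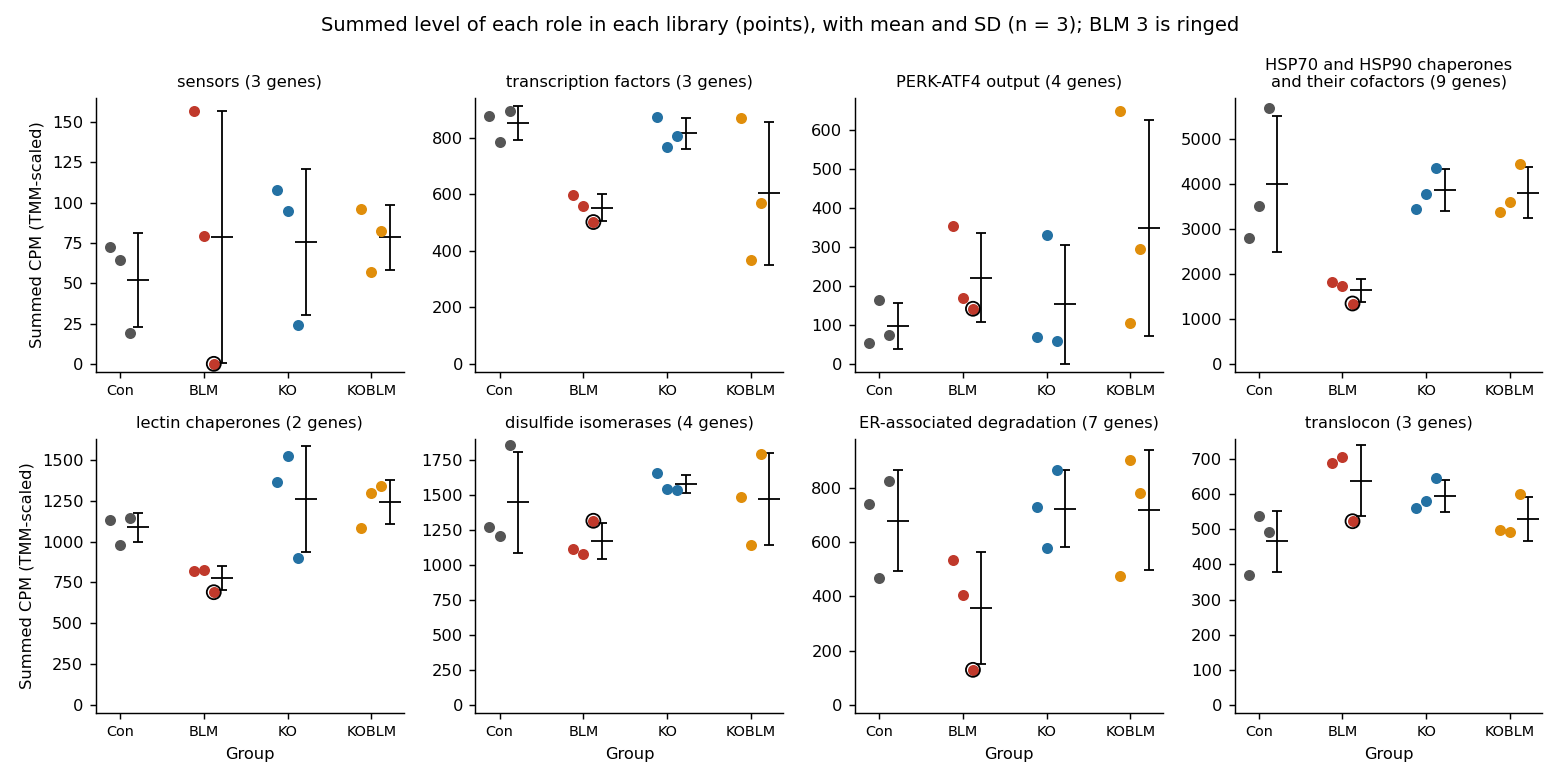
Summed CPM of the genes of each role in each library, with the mean and SD of 3 libraries beside the points and BLM 3 ringed. The 3 BLM libraries lay below all others for the HSP70 and HSP90 chaperones with their cofactors (1339 to 1827 CPM) and for the lectin chaperones (690 to 824 CPM). They did not do so for any other role.

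The first comparison asked how the set differed between bleomycin-treated and PBS-treated control mice. Hspa5 and Xbp1 were lower in BLM, and no gene of the set rose past the test. The test was edgeR's quasi-likelihood fit over all 13054 genes, and a gene passed when it differed by more than 1.5-fold at p under 0.05 before adjustment. Of the 34 tested genes 2 passed (5.88%), against 4.27% of all genes tested. In this fit no gene of the genome had an adjusted p (Benjamini-Hochberg) under 0.05, here or in any other comparison. Without the filter on low counts 12 of all genes did so in BLM against Con by edgeR, and 0 of the set. With DESeq2 in place of edgeR 114 of all genes and 0 of the set did so here.

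Hspa5 (GRCm38, chromosome 2, 34771970 to 34777547, plus strand) was at 1513, 2132 and 3703 CPM in the Con libraries and at 1050.1, 988 and 673 CPM in the BLM libraries. The groups did not overlap, and the 3 BLM libraries were the lowest of all 12 (904 ± 202 CPM in BLM and 2449.5 ± 1129 CPM in Con, SD, n = 3). The fitted level was 2.71-fold lower in BLM (log2 fold change −1.44, SE 0.43, 95% interval −2.35 to −0.52, adjusted p = 0.995 by edgeR), which ranked it 50 among the 13054 genes. It stayed past the test under every alternative fit, with log2 values from −1.69 to −0.87, and without BLM 3 it was 2.41-fold lower. An exact permutation test of the 3 against 3 libraries gave p = 0.1 (two-sided), the smallest value this design allows.

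Xbp1, which encodes the transcription factor activated by IRE1α, was at 557, 400.5 and 550.4 CPM in Con and at 242, 255 and 93.3 CPM in BLM. The groups did not overlap. The level was 2.56-fold lower in BLM (log2 −1.35, SE 0.56, adjusted p = 0.995 by edgeR), and the lowest library was BLM 3. Without BLM 3 it was 2.02-fold lower and missed the threshold, as it did when either Con 1 or Con 3 was left out (log2 −1.28 and −1.29). In all, Xbp1 missed the threshold in 4 of the alternative fits of this comparison. The counts do not separate the spliced from the unspliced mRNA.

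The other HSP70 and HSP90 chaperones and their cofactors had lower values in BLM as well, 9 of 9 counting Hspa5, with log2 fold changes from −2.84 to −0.76. Without BLM 3 the values ran from −2.25 to −0.18, and those of Sdf2l1 (−0.76 with it) and Manf (−0.83 with it) were −0.18 and −0.24. Hsp90b1 was at 769, 825 and 805 CPM in Con and at 346, 336 and 660 CPM in BLM. The 2 groups did not overlap, and the difference missed the threshold with BLM 3 in the fit (log2 −0.84, SE 0.44, adjusted p = 0.995 by edgeR). Without BLM 3 Hsp90b1 was 2.35-fold lower and passed.

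Hyou1, which encodes the large ER chaperone that exchanges nucleotide on BiP, was at 129, 91.7 and 275 CPM in Con and at 20.2, 49.3 and 0 CPM in BLM. All 3 BLM libraries were below all Con libraries, and the difference missed the threshold narrowly (log2 −2.84, 95% interval −5.68 to 0.002). Without BLM 3 it was 4.75-fold lower and passed. Dnajb11, which encodes an ER DNAJ cofactor of BiP, was at 50.7, 36.1 and 69.1 CPM in Con and at 18.6, 18.5 and 0.578 CPM in BLM. The groups again did not overlap, and the difference did not pass (log2 −2.05, SE 1.15). Without BLM 3 it was log2 −1.485 and did not pass either.

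Among the lectin chaperones and the disulfide isomerases none passed. Calr (calreticulin) was at 592, 553 and 737 CPM in Con and at 479, 460.3 and 232 CPM in BLM, without overlap (log2 −0.68, SE 0.44). Without BLM 3 the log2 fold change of Calr was −0.42. Pdia6, an oxidoreductase that works with BiP, was at 340.1, 322 and 762 CPM in Con and at 246, 183 and 397 CPM in BLM. The BLM 3 value lay among the Con values, and without that library Pdia6 was 2.21-fold lower and passed.

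Hence leaving out BLM 3 raised the number of genes lower in BLM from 2 to 4 of 34, against 5.45% of all genes tested. The 4 genes were Hspa5, Hsp90b1, Hyou1 and Pdia6, and Xbp1 was no longer among them. The lowest adjusted p of the set in that fit was 0.485 (edgeR). The median log2 fold change of the 34 genes was −0.56 with all libraries, where that of all genes was −0.08, and −0.35 without BLM 3, where that of all genes was 0.05. It was 0.0083 when the library with the fewest genes was left out of each group, where that of all genes was 0. The lower median of the set in BLM therefore depended on which libraries were kept. Counting only whether the libraries of the groups overlapped, 9 of 34 genes were lower in all BLM than in all Con libraries (10.2% of all genes were) and 2 were higher (5.81% of all genes). The 2 higher genes were Ddit3 and Sec61a1. Without BLM 3 the numbers were 11 lower (12.7% of all genes) and 5 higher (19% of all genes).

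BLM 3 held many of the lowest values of the set. It was below all other libraries for 18 genes and above them for 3. Of the 13 genes at 0 counts there, 8 were above 10 CPM in every other library, a group that includes the BiP cofactors Dnajc3 and Sdf2l1, the degradation gene Herpud1 and the secreted ER protein genes Manf and Creld2. For Herpud1, which encodes an ER membrane protein of the degradation machinery, the Con libraries were at 123, 63.4 and 113.5 CPM and the BLM libraries at 65.4, 64.1 and 0 CPM. BLM 1 and BLM 2 thus lay at the level of the lowest Con library.

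**Figure D3:**
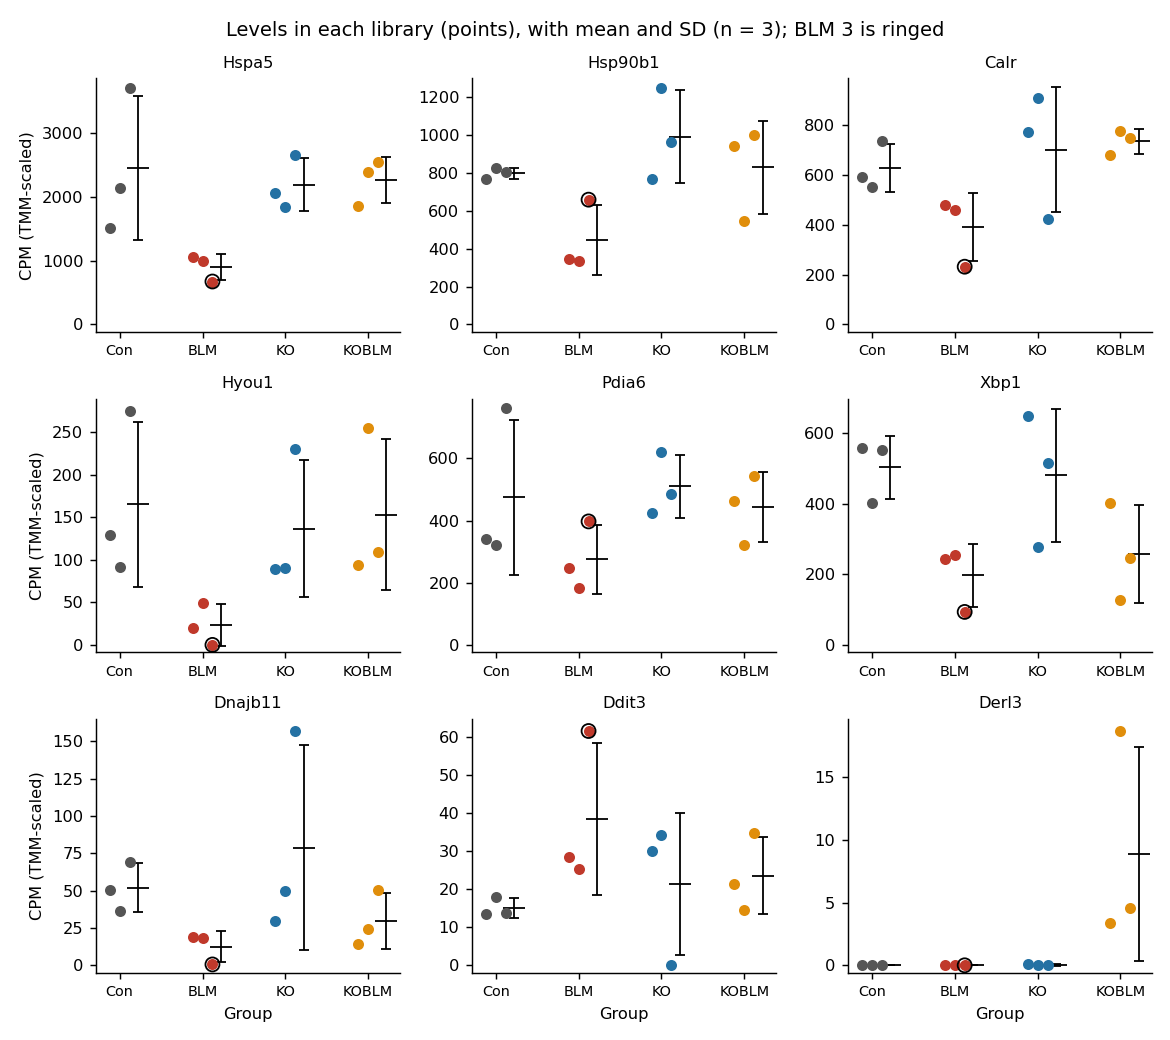
Levels of 9 genes in each library (points), with the mean and SD of 3 libraries beside them. The BLM libraries of Hspa5 lay between 673 and 1050.1 CPM and all other libraries at 1513 CPM or above, while for Derl3 all libraries of Con and BLM were at 0.

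No gene of the PERK branch passed the test. Atf4 was at 307, 366 and 332 CPM in Con and at 328, 278 and 347 CPM in BLM (log2 −0.08, SE 0.46). Ddit3, which encodes the factor CHOP associated with cell death under ER stress, was at 13.5, 18 and 13.6 CPM in Con and at 28.5, 25.4 and 61.6 CPM in BLM. The groups did not overlap, but the difference did not pass (log2 1.36, SE 1.54). Without BLM 3 it was log2 0.84 and did not pass either. Trib3, a pseudokinase gene downstream of ATF4 and CHOP, was at 5.47, 0.108 and 28.4 CPM in Con and at 1.46, 13.8 and 99.9 CPM in BLM. Its groups overlapped, and its highest value was in BLM 3. Its log2 fold change was 1.76 with all libraries and −0.57 without BLM 3, and neither passed.

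Ppp1r15a, which encodes the phosphatase subunit GADD34, was at 47, 157 and 45.2 CPM in Con and at 341, 155 and 30.9 CPM in BLM. Asns (asparagine synthetase) and the sensor gene Ern1 each had no count in 5 of the 12 libraries. The 3 translocon genes, through which new proteins enter the ER, had higher values in BLM, with log2 fold changes from 0.15 to 0.77, and none passed the test. Sec61a1 was at 95.6, 219 and 203 CPM in Con and at 272, 310.1 and 298 CPM in BLM, without overlap (log2 0.77, SE 0.51).

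**Figure D4:**
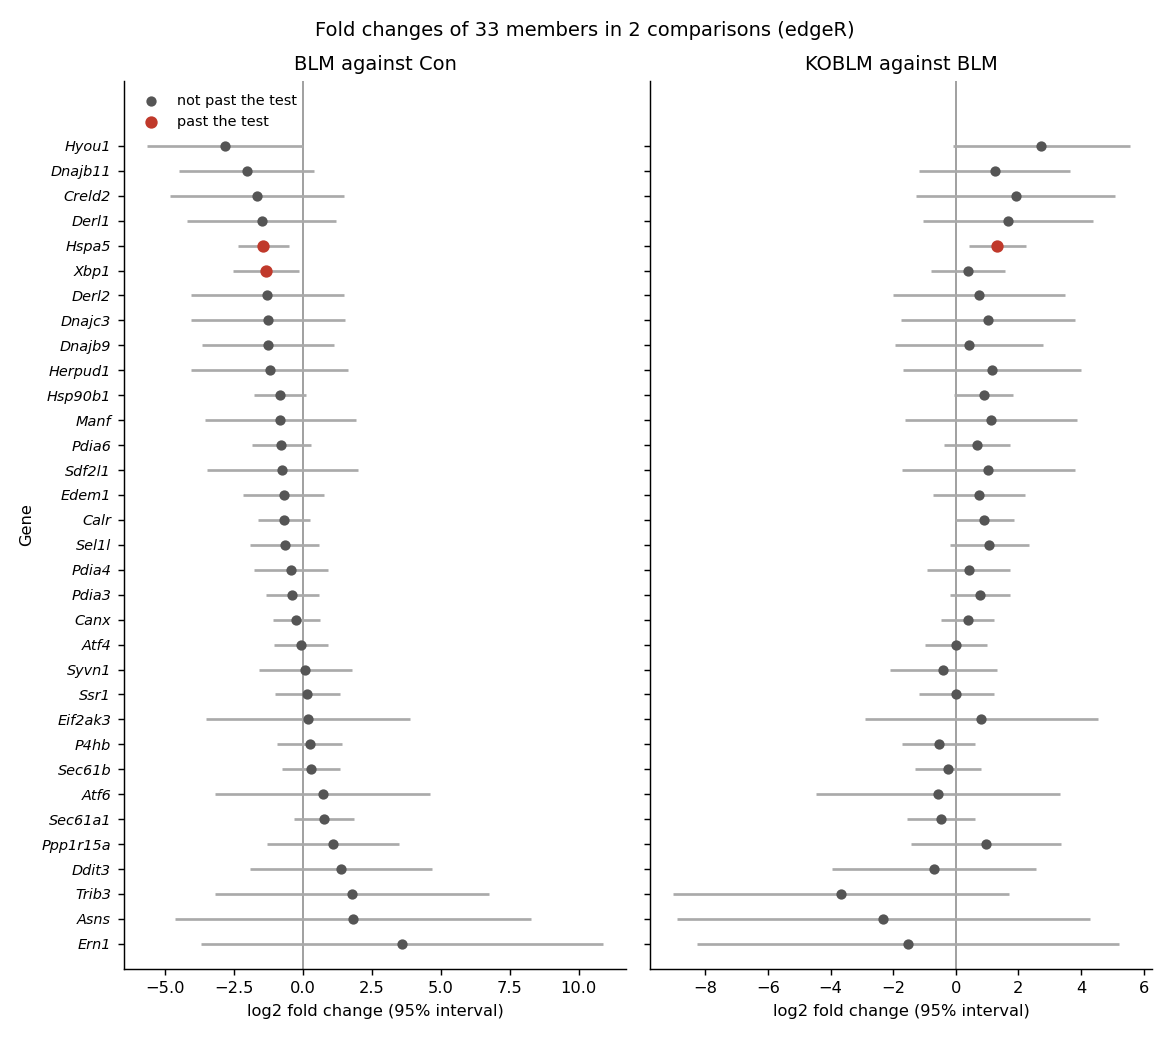
Log2 fold changes of 33 genes with 95% intervals (edgeR), for BLM against Con (left) and KOBLM against BLM (right), with the genes that passed the test in red. The genes are in the order of the left panel. Derl3 is left out since BLM had no count, and both panels use the same BLM libraries.

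The second comparison asked how knockout and control mice differed after bleomycin. Hspa5 and Derl3 were higher in KOBLM than in BLM, and none was lower past the test. The 2 genes are 5.88% of the 34 tested, against 3.16% of all genes tested. Derl3 entered the test only through its counts in KOBLM, the group in which it was high, and without it 1 of 33 genes passed. Both this comparison and the first use the BLM libraries, and their values are therefore not independent of each other.

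Hspa5 was at 1861, 2384 and 2547 CPM in KOBLM, above the 673 to 1050.1 CPM of BLM in every library. It was 2.51-fold higher (log2 1.33, SE 0.43, 95% interval 0.41 to 2.24, adjusted p = 1 by edgeR), rank 37 among all genes. Under the alternative fits it stayed past the test, with log2 values from 1.15 to 1.497, and it was 2.22-fold higher without BLM 3. The exact permutation p was again 0.1, the smallest possible.

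Hsp90b1 was at 943, 548 and 1001 CPM in KOBLM. KOBLM 2 lay below the 660 CPM of BLM 3, and the difference missed the threshold (log2 0.89, SE 0.44). Without BLM 3 it was 2.44-fold higher and passed. Hyou1 was at 94.4, 256 and 109.7 CPM in KOBLM, above all BLM libraries. It did not pass with all libraries (log2 2.73, SE 1.32) and passed without BLM 3, at 4.41-fold higher. Calr, at 679, 779 and 748 CPM, was also above all BLM libraries (log2 0.91, SE 0.45, and log2 0.65 without BLM 3).

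Without BLM 3 the genes higher in KOBLM than in BLM were 5 of 34, against 3.34% of all genes tested. They were Hspa5, Hsp90b1, Hyou1, Pdia6 and Derl1, a member of the derlin family of the degradation channel. Derl3 then missed the threshold, and the lowest adjusted p of the set was 1 (edgeR). By the count of groups without overlap, 7 of 34 genes were higher in all KOBLM than in all BLM libraries (6.14% of all genes) and 1, Sec61a1, was lower (4.65%). Without BLM 3 these were 11 (7.82% of all genes) and 1 (15.7%). The 7 genes with all libraries were Hspa5, Calr, Pdia3, Creld2, Hyou1, Derl1 and Derl3. Pdia3, the disulfide isomerase that works with calreticulin and calnexin, was at 596, 591 and 590.0 CPM in KOBLM and at 418, 427 and 199.6 CPM in BLM. The median log2 fold change of the set was 0.74, where that of all genes was 0.10, and 0.46 without BLM 3, where that of all genes was −0.06.

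Derl3, the derlin known from secretory cells such as plasma cells, had no count in any Con or BLM library. It had 1 count in KO 1 and 24, 198 and 38 counts in the KOBLM libraries, or 3.36, 18.7 and 4.61 CPM. The mean of KOBLM was at least 24.4-fold higher than BLM when BLM is set to a floor of 3 counts per library (adjusted p = 1 by edgeR). It missed the threshold in 5 of the alternative fits, among them each fit that left out 1 of the BLM libraries. The plasma cell genes Jchain and Mzb1 were at 0 to 3.57 CPM in all 12 libraries and Tnfrsf17 at 0, and the 6 plasma cell genes summed to between 28.8 and 59.8 CPM in KOBLM and 25.6 and 35.4 CPM in BLM. Most of that sum was Sdc1, at 28.8 to 54.8 CPM in KOBLM and 18.9 to 35.4 CPM in BLM. Sdc1 was at 0.541 to 14.1 CPM in Con and 0 to 6.42 CPM in KO. The cell source of the Derl3 counts was not tested.

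Xbp1 did not pass in this comparison. It was at 401, 126 and 246 CPM in KOBLM, within and around the range of BLM (log2 0.39, SE 0.55). Across both genotypes Xbp1 was 2.18-fold lower with bleomycin (log2 −1.12, SE 0.40, adjusted p = 1 by edgeR), and it stayed past the test in all alternative fits of that comparison. Its difference of the bleomycin effect between the genotypes was log2 0.46 (95% interval −1.22 to 2.13), and log2 0.12 without BLM 3.

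The difference of the bleomycin effect between genotypes was tested as an interaction for each gene. Hspa5 was the 1 gene of 34 that passed, against 2.82% of all genes tested. Its bleomycin effect was 2.80-fold (log2 1.49, SE 0.60, 95% interval 0.21 to 2.76) higher in the knockout than in the control genotype (adjusted p = 1 by edgeR). It missed the threshold without Con 3 (log2 1.06), whose 3703 CPM was the highest value of all, without KO 2 (log2 1.38), and when the library with the fewest genes was left out of each group (log2 1.02). Without BLM 3 both Hspa5 (log2 1.31) and Hyou1 (log2 2.41) passed, against 4.63% of all genes.

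Averaged over both genotypes, bleomycin was accompanied by lower Hspa5, Xbp1 and Dnajb11, 3 of 34 genes, against 4.47% of all genes tested. Dnajb11 was at 29.4, 49.7 and 157 CPM in KO and 14.6, 24.3 and 50.3 CPM in KOBLM, and its average change was log2 −1.73 (SE 0.80). It was lost in most fits that left out 1 library. Hspa5 (log2 −0.70, SE 0.30) was lost in 5 of the alternative fits. Among these were the fits without Con 3, KO 3 or KOBLM 1 and that with a replicate block. Without BLM 3 the genes lower with bleomycin were 6, against 7.16% of all genes: Hspa5, Xbp1, Dnajb11, Hsp90b1, Hyou1 and Pdia6.

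In PBS-treated mice no gene of the set passed the test between the genotypes. Of the 34 genes 0 passed between KO and Con by edgeR, 0 had an unadjusted p under 0.05, and DESeq2 also gave 0, against 1.44% of all genes tested. Hspa5 was at 2065, 1848 and 2662 CPM in KO, inside the range of Con (log2 −0.16, 95% interval −1.06 to 0.74, edgeR). Derl3 and Asns had the smallest p values of the set, and neither was near the threshold.

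Between KOBLM and KO 0 of 34 genes passed by edgeR and 0 had an unadjusted p under 0.05, against 1.69% of all genes tested. DESeq2 gave 1, Derl3. For Hspa5 the difference between these groups was log2 0.05 (95% interval −0.85 to 0.94, edgeR). For the genotype averaged over both treatments Derl3 was the 1 gene of 34 past the test, against 2.9% of all genes. It was lost in 4 of the alternative fits, among them that without KO 1, the KO library with a count. Derl3 entered the test only through KOBLM, and 0 of the other 33 genes passed. Without BLM 3 there were 2 (4.64% of all genes), Derl3 and Hsp90b1, the latter 1.74-fold higher with the knockout.

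Among the summed lists of cell markers, only the fibroblast genes set all BLM libraries apart from those of every other group. The macrophage sums of BLM 1 and BLM 2 (9136 and 10794 CPM) lay among those of the other groups, and that of BLM 3 lay below them. Single genes of the macrophage list could differ from its sum. Ptprc was at 208, 276 and 28.3 CPM in BLM and at 339 to 785 CPM in all other libraries. For Chil3 and Cd68 the BLM libraries overlapped those of other groups. The 15 macrophage genes summed to between 9229 and 19390.4 CPM in Con, 827 and 10794 CPM in BLM, 11562 and 33159 CPM in KO, and 7998 and 17126 CPM in KOBLM, and each of the 15 had a count in some library. The 6 fibroblast genes summed to between 86.8 and 426 CPM in Con, 913 and 1876 CPM in BLM, 42.1 and 376 CPM in KO, and 172 and 645 CPM in KOBLM. The 11 ATII genes summed to between 1073 and 3686 CPM in Con, 1298 and 3086 CPM in BLM, 771 and 2063 CPM in KO, and 879 and 1724 CPM in KOBLM. The 7 B cell genes were at 0 to 71.9 CPM and the 5 endothelial genes at 49.1 to 1303 CPM over all libraries. The part of these cells in the difference of Hspa5 was not tested.

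The genes with an exact ERSE in the promoter window can be set beside the other genes of the set. Derl3 is left out of this description because it had no count in Con and BLM. For BLM against Con, 7 of the 8 remaining genes with the element had a value below 0 (median log2 −0.81, range −1.67 to 0.08). Of the 20 tested genes with a window and no exact ERSE, 11 did (median −0.24). These 20 genes include Dnajb11 and Herpud1, which carry ERSE-II (log2 −2.05 and −1.21). For KOBLM against BLM, 7 of 8 had a value above 0 (median 0.90), and 14 of 20 of the others did (median 0.41). Without BLM 3 the medians were −0.89 and −0.16 for the first comparison and 0.85 and 0.12 for the second. The exception in both was Syvn1, which encodes the ubiquitin ligase HRD1 and whose element lies closest to the start site. Of the genes with the element, Hspa5, Hsp90b1, Calr, Canx and Pdia6 were among the 6 most abundant of the set, and the part of abundance in the narrower spread of their values was not tested.

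**Figure D5:**
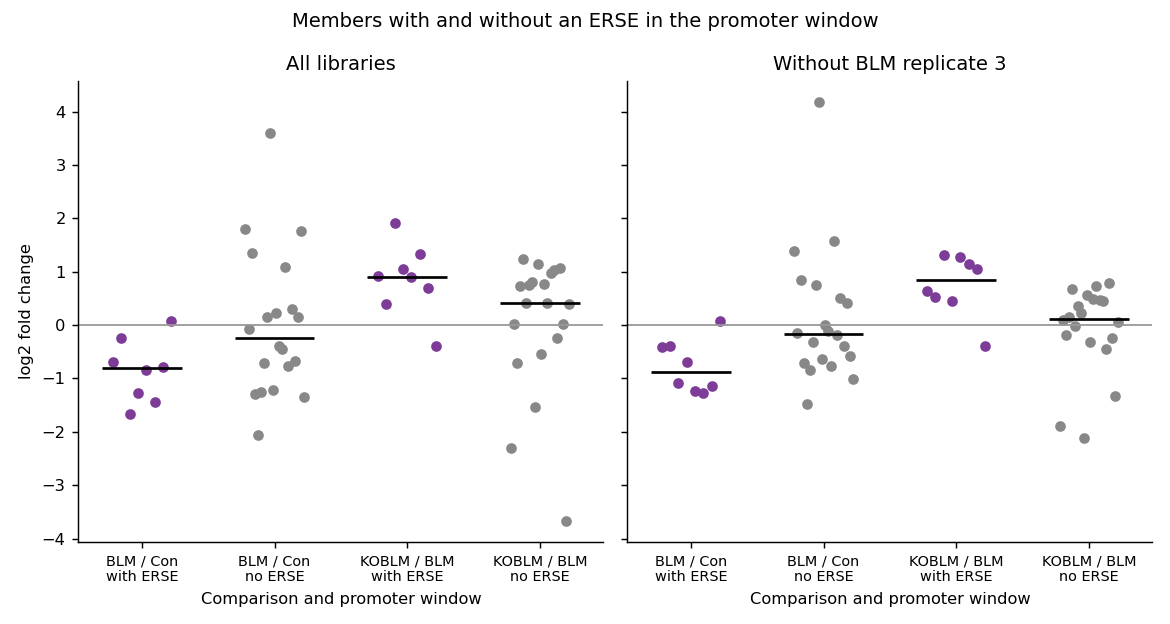
Log2 fold changes of the genes with an exact ERSE (purple, 8 genes) and with a window but no exact ERSE (grey, 20 genes). The left panel has all libraries and the right panel is without BLM 3. The grey genes include Dnajb11 and Herpud1, which carry ERSE-II. Lines are medians: −0.81 and −0.24 for BLM against Con, and 0.90 and 0.41 for KOBLM against BLM, with all libraries.

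Of 98 other genes of ER folding, degradation, transport and stress, 96 were tested. In BLM against Con 1 rose and 4 fell, beside 4.27% of all genes, and in KOBLM against BLM 0 passed. Slc7a11, a cystine transporter gene, was at 11.71, 4 and 3.17 CPM in Con and at 179, 97.5 and 29 CPM in BLM (log2 4.02, SE 1.70, adjusted p = 0.995 by edgeR). It was also higher in KO (36.9, 345.1 and 41 CPM, log2 4.49) and ranged from 0 to 331 CPM in KOBLM. Ganab, which encodes a subunit of the glucosidase that trims sugars for the lectin chaperones, was at 141, 193 and 382 CPM in Con and at 72.5, 116 and 95.1 CPM in BLM (log2 −1.34, SE 0.58). Phgdh, the first enzyme of serine synthesis, was at 51.6, 30.6 and 85.3 CPM in Con and at 8.74, 7.33 and 19.3 CPM in BLM (log2 −2.24, SE 1.01). These 3 had the smallest p values of the list, and their groups did not overlap. In KO against Con 1 of the 96 passed, Slc7a11, and in KOBLM against KO 0 did.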

How the data were processed

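The libraries were made with a 3′ kit (QuantSeq) from RNA of sorted cells, 1 per sample, 3 per group. The authors deposited raw read counts per gene symbol, 1 file per library. The submitters' processing notes name Bowtie2, edgeR and mm10, without roles. How reads of overlapping genes were assigned is not given in the sources used here. Each file held 23282 entries. The 35 repeated symbols, none of the set, were summed.

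Counts were scaled by TMM. Genes were kept by filterByExpr (minimum count 10, minimum total 15). All 12 libraries were fitted with edgeR 4.0.16 (R 4.3.3) by quasi-likelihood, with a group mean each and no covariate. A gene passed with a fold change over 1.5 and p under 0.05, unadjusted. The study states the same limits of fold change and p for its sequencing results. In this fit no gene had an adjusted p under 0.05. The biological coefficient of variation was 1.44, so moderate changes could be missed. Levels are TMM-scaled CPM. The detection floor was 3 counts per library, which covers counting error only. Alternatives were DESeq2 1.42.0, other scaling, no filter, a replicate block, the groups compared alone, other thresholds, and leaving out libraries, including, chosen after seeing the data, the library with the fewest genes in each group. The fit was also run on simulated counts with known, large fold changes. Their recovery was required only at a spread far smaller than that of the data (common dispersion 2.08). That requirement does not show how many changes are found at the spread of the data.

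Per-library values are given for genes passing the test at 10 CPM or more and for Hspa5, Hsp90b1, Calr, Xbp1, Atf4, Ddit3, Herpud1, Derl3, Trib3 and Chac1. Chac1 had 10 counts in Con 2, 31 in KOBLM 3 and none elsewhere. Hyou1, Pdia6, Pdia3, Ppp1r15a and Sec61a1 were added after their values were seen. Of 98 other pathway genes, at most 3 per comparison are named, by smallest p, if they passed and their groups did not overlap. The genes, lists and tests were chosen with earlier results of these data known. Gene positions come from GENCODE M21, and in 5 of the 35 genes (Pdia6, Manf, Syvn1, Ppp1r15a and Sec61a1) an exon of a gene on the other strand lay over the last 500 bases. The study's methods describe 1 animal per cell isolation.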

Additional observations from a re-analysis of the deposited data

Results flagged for a closer look

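Hspa5 was singled out because its bleomycin effect differed between the genotypes by the test of the interaction: log2 1.49 (SE 0.60), with all 3 BLM libraries below all 3 Con libraries and the KOBLM libraries (1861 to 2547 CPM) among those of KO (1848 to 2662 CPM). It failed the correction over all genes (adjusted p = 1 by edgeR). Its alternatives gave log2 1.02 to 1.74, and 3 of them missed the threshold: without Con 3, without KO 2, and without the library with the fewest genes of each group.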

How the results depend on the processing

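Hspa5 kept its direction and its side of the threshold in BLM against Con and in KOBLM against BLM under all alternatives, including each library left out in turn, and Xbp1 did so for bleomycin over both genotypes. None of the calls of Hspa5, Xbp1, Derl3 and Dnajb11 changed direction. Trib3, which passed in no comparison with all libraries, turned from higher to lower without BLM 3 in BLM against Con (log2 1.76 to −0.57) and for bleomycin over both genotypes (0.65 to −0.52), and from lower to higher for the interaction (−2.23 to 0.10). Other genes that passed in no comparison with all libraries also changed sign without BLM 3. Among them were Edem1 (0.23 to −0.16) and Eif2ak3 (0.22 to −0.36) for the interaction. The numbers of genes of the set that passed moved more. With adjusted p under 0.05 they were 0 in each comparison. With DESeq2 they were 4 in BLM against Con (7.25% of all genes passed), 1 in KOBLM against KO (3.52%) and 0 for the genotype over both treatments (4.4%). With only the compared groups in the model 1 passed in KOBLM against KO (1.25% of all genes), and without the filter on low counts 3 passed for the interaction (4.04%). With the replicate number as a replicate block they were 1 in KOBLM against BLM (Hspa5; 2.01% of all genes), 1 for bleomycin over both genotypes (Xbp1; 2.76%) and 0 for the genotype (1.68%). The replicate numbers are part of the sample titles, which do not say whether same-numbered libraries were handled together. The deviations of same-numbered libraries correlated between −0.12 and 0.096, with 0 of 18 pairs over 0.1 (4 of 36 other pairs were). These correlations cannot show that the numbers carry no batch. Replicate 3 had the most counts and the fewest genes of its group in Con, BLM and KO, while in KOBLM replicate 2 did. Leaving out the library with the fewest genes in each group gave 4 for BLM against Con (9.9% of all genes), 5 for KOBLM against BLM (5.72%), 1 for KO against Con (Manf; 4.28%), 6 for the genotype (6.16%) and 2 for the interaction (6.22%). The median of the set then was 0.0083 in BLM against Con and 0.17 for the interaction, with 2 libraries per group. Leaving out 1 library at a time, the numbers ranged from 1 to 4 in BLM against Con, 1 to 5 in KOBLM against BLM, 0 to 1 in KOBLM against KO, 1 to 6 for bleomycin, 0 to 2 for the genotype and 0 to 2 for the interaction, and the highest value was that without BLM 3 for BLM against Con, KOBLM against BLM and bleomycin over both genotypes. Without scaling by TMM the median of all genes moved from −0.09 to −0.21 in KO against Con.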
